A study of Mus musculus with 10 samples.

Results

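The mouse kappa light chain is assembled from 1 V gene (IGKV) and 1 of 4 functional joining genes, IGKJ1, IGKJ2, IGKJ4 and IGKJ5, and this account follows those 4 J genes through the lymph nodes of glioma-bearing mice. Sequences with an IGKV call were sorted by the gene of their first J call. They numbered 103952 of the 103954 kappa sequences and of the 448970 receptor sequences of both chains, with 25730 on IGKJ1, 30424 on IGKJ2, 18373 on IGKJ4 and 29425 on IGKJ5. The other 2 kappa sequences were called IGKJ3, which lies between IGKJ2 and IGKJ4 in the gene table.

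All 10 mice were wild-type C57BL/6 animals that carried GL261, a mouse glioma cell line placed in the brain. In 5 mice the treatment was isotype IgG, a control antibody, and in the other 5 an antibody that blocks CTLA-4, an inhibitory receptor of T cells. The deep cervical lymph nodes, which drain the head, were taken on day 20, and receptor RNA was sequenced in bulk from whole cells, 1 library per mouse. No tumour-free mice were among the samples, so each comparison is between treatments of glioma-bearing animals. In bulk RNA, more cells of a clone and more transcript per cell cannot be told apart.

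In a developing B cell a cut is made beside a V and a J segment and the ends are joined, often with loss of bases and sometimes with added ones, which forms the junction that encodes the third complementarity-determining region (CDR3) of the light chain. A cell whose first kappa joining is out of frame or encodes a self-reactive receptor can join again, with a V gene upstream and a J gene downstream of the first. Where a self-reactive receptor is replaced in this way, the process is called receptor editing. IGKJ1, the J gene nearest to the V genes, can thus be replaced by IGKJ2, IGKJ4 or IGKJ5, while a joining to IGKJ5 leaves no J gene downstream. Joinings marked non-productive make no light chain and are seen in cells that made a working receptor from another joining. Each distinct combination of V gene, J gene and junction nucleotides in a mouse is here called a clonotype and is counted once. The count the authors deposited with each sequence is called the deposited count, and it weighs cells rich in transcript, such as plasma cells.

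The germline J sequences are shown because the genes differ where the junction is formed and are alike elsewhere. They were read from the germline alignments of the deposited tables, 5′ to 3′, and the capitals mark the 6 bases that end the junction in all 4 genes.
IGKJ1: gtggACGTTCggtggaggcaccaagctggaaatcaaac
IGKJ2: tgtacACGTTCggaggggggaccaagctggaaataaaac
IGKJ4: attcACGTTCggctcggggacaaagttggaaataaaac
IGKJ5: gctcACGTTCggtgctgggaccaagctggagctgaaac
IGKJ2 has 39 bases, 5 of them before the shared stretch, and the other J genes have 38 with 4 before it. The codon that precedes the shared stretch is tgg (tryptophan) in IGKJ1, tac (tyrosine) in IGKJ2, ttc (phenylalanine) in IGKJ4 and ctc (leucine) in IGKJ5. Over the whole gene, identity between pairs ran from 71.05% (IGKJ1 and IGKJ4) to 84.2% (IGKJ1 and IGKJ2).

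The libraries held 6939 to 13391 kappa sequences and 200369 to 448348 kappa counts per mouse. Productive joinings formed 34827 clonotypes, 2663 to 4106 per mouse, and non-productive ones 19431, 1154 to 2944 per mouse. Of the non-productive clonotypes 95.5% were out of frame. Non-productive sequences made up 19.3% to 30.9% of kappa sequences and 1.64% to 5.08% of kappa counts. In the mouse with the fewest productive clonotypes, the IGKJ4 share of 17.1% had a 95% exact Clopper-Pearson interval of 15.7% to 18.6%. Several V genes were named jointly in 2.46% of kappa sequences, and 2 sequences had a joint J call. Of the productive clonotypes 4.65% had at least 10 times the count, and at least 100 counts, in another mouse.

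The share of each J gene among productive clonotypes was close to constant over the 10 mice. IGKJ2 was the most used, at 29.8% ± 1.07, followed by IGKJ5 at 26.2% ± 1.28, IGKJ1 at 25.7% ± 0.735 and IGKJ4 at 18.3% ± 0.805 (SD, n = 10 each). The IGKJ2 share ran from 28.5% to 31.7% with a median of 29.6%, and the IGKJ4 share from 17.1% to 19.4% with a median of 18.4%. IGKJ2 exceeded the other 3 J genes in 10 of 10 mice, and IGKJ4 was lowest in 10 of 10. The order of the middle pair was not fixed, since IGKJ5 exceeded IGKJ1 in 6 of 10 mice.

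CTLA-4 blockade did not move these shares past a test. In anti-CTLA-4 and isotype mice respectively, IGKJ1 made up 25.7% ± 1.01 and 25.8% ± 0.426 of productive clonotypes, IGKJ2 29.6% ± 1.21 and 30.03% ± 0.997, IGKJ4 18.4% ± 0.926 and 18.2% ± 0.760, and IGKJ5 26.3% ± 1.38 and 26.0% ± 1.31 (SD, n = 5 each). The groups overlapped for each J gene. The widest gap between means, for the sum of the downstream genes IGKJ4 and IGKJ5, was 0.547 percentage points (two-sided exact permutation p = 0.444). The adjusted p was 0.778 for each of the 5 shares tested, and with 5 mice against 5 the smallest p that reassignments can give is 0.00794.

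Non-productive clonotypes drew on the J genes in another order. There IGKJ5 led with 28.1% ± 0.756, before IGKJ1 with 26.6% ± 1.16, IGKJ2 with 24.6% ± 1.19 and IGKJ4 with 20.8% ± 0.600 (SD, n = 10 each). IGKJ5 exceeded IGKJ2 in 10 of 10 mice and IGKJ1 in 9 of 10, and IGKJ1 exceeded IGKJ2 in 8 of 10. Between the treatments the largest difference was -0.451 percentage points for IGKJ2 (exact permutation p = 0.587), and no adjusted p was under 0.944.

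Within a mouse, IGKJ2 took a larger share of productive than of non-productive clonotypes in 10 of 10 mice. The gain was 3.94, 6.78, 4.25, 4.93 and 6.34 percentage points in isotype replicates 1 to 5 and 6.58, 4.68, 2.97, 4.50 and 7.78 in anti-CTLA-4 replicates 1 to 5, a mean of 5.28 ± 1.51 (SD, n = 10). The smallest of these gains was larger than the SD over mice. IGKJ4 took the smaller share in 10 of 10 mice, by -2.51 ± 1.12 percentage points, and IGKJ5 in 9 of 10, by -1.95 ± 1.37 (SD, n = 10 each). In the exact permutation test over sign changes the adjusted p was 0.00326 for IGKJ2 and IGKJ4, 0.00488 for IGKJ5 and 0.00326 for the sum of IGKJ4 and IGKJ5, which was lower by -4.46 percentage points. IGKJ1 differed by -0.817 ± 1.28 (SD, n = 10), lower in 7 of 10 mice, and did not pass (adjusted p = 0.0801, exact permutation test). The smallest p this paired test can give is 0.00195. Counting each assembled sequence once in place of clonotypes ended the IGKJ5 difference, at 0.422 percentage points (adjusted p = 0.738, exact permutation test), and that of the sum of IGKJ4 and IGKJ5, at -3.23 (adjusted p = 0.0732), and brought IGKJ1 to -3.80 (adjusted p = 0.00977). That setting also took in sequences without a junction, 4.57% of the non-productive ones, which form no clonotype.

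The same contrast appeared as the share of each J gene's clonotypes that were out of frame. It was 29.3% ± 3.34 for IGKJ2, 34.6% ± 3.45 for IGKJ1, 35.0% ± 4.41 for IGKJ5 and 37.2% ± 4.12 for IGKJ4 (SD, n = 10 each). These values rest on the same clonotypes as the shares above and were not tested again. Near copies of abundant clonotypes, which sequencing errors can create, were set apart. Clonotypes that differed by 1 inserted or deleted base, or not at all in the junction, from a productive clonotype of at least 10 times the count made up 28.6% of the non-productive ones. Without them, and without the 25.8% of productive clonotypes that lay 1 substitution from such a clonotype, the differences were 4.45 for IGKJ2, -2.07 for IGKJ4 and -2.58 for IGKJ5 (adjusted p = 0.00244 each, exact permutation test), and that of IGKJ1 was 0.204 (adjusted p = 0.695).

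**Figure D1:**
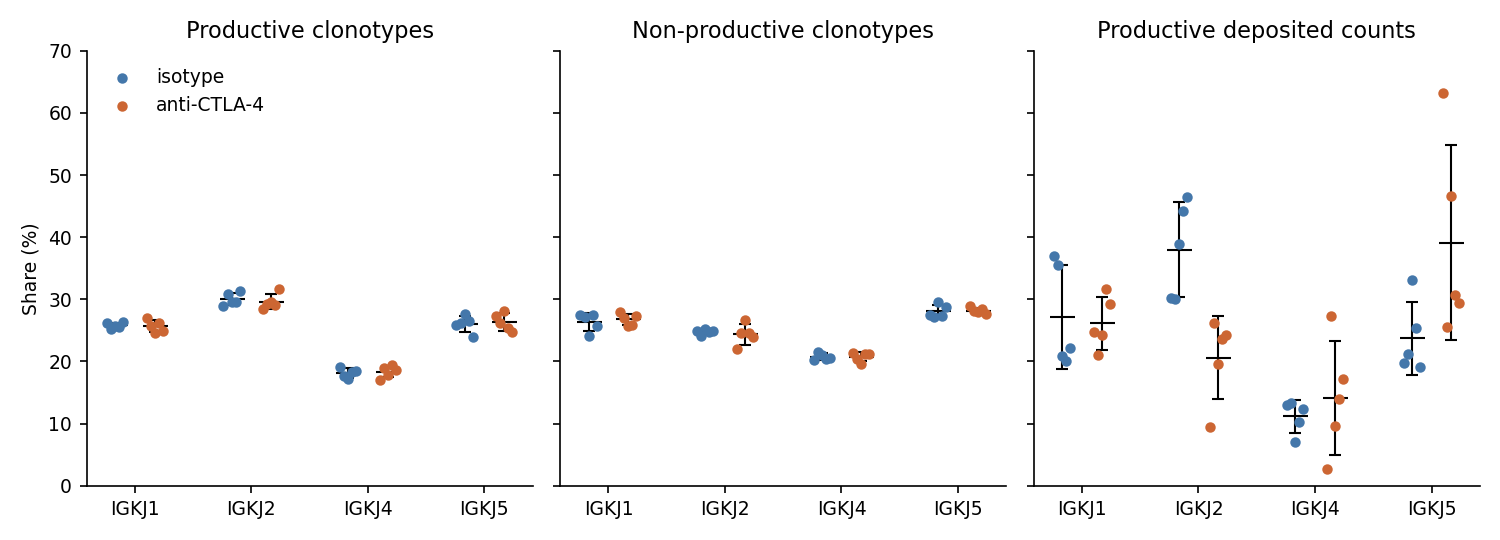
Share of the 4 IGKJ genes in percent for productive clonotypes, non-productive clonotypes and productive deposited counts. Each point is 1 mouse, blue for isotype IgG and orange for anti-CTLA-4 (5 each), and the black marks are the group mean and SD; clonotype shares lie close together, while by counts all 5 anti-CTLA-4 mice lie below all 5 isotype mice for IGKJ2.

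Weighted by deposited counts, the J genes spread far more between mice, and the treatments parted in productive joinings. IGKJ2 held 30.2%, 30.1%, 38.9%, 44.3% and 46.5% of productive kappa counts in isotype replicates 1 to 5, and 9.46%, 26.1%, 19.6%, 23.6% and 24.2% in anti-CTLA-4 replicates 1 to 5. The groups did not overlap, and anti-CTLA-4 replicate 1 was the lowest. The means were 38.0% ± 7.68 and 20.6% ± 6.67 (SD, n = 5 each), a difference of -17.4 percentage points (exact permutation test, two-sided, p = 0.00794 and adjusted p = 0.0198 over 5 shares). The downstream genes IGKJ4 and IGKJ5 together held 34.9% ± 3.38 of counts after isotype IgG and 53.2% ± 8.43 after anti-CTLA-4 (SD, n = 5 each). This sum ran from 31.4% to 40.2% in isotype mice and from 44.7% to 65.8% in anti-CTLA-4 mice, again without overlap (difference 18.4 percentage points, exact permutation p = 0.00794, adjusted p = 0.0198). In non-productive counts both differences ran the other way. There IGKJ2 held 18.4% ± 3.77 after isotype IgG and 22.5% ± 10.6 after anti-CTLA-4, and the sum 52.5% ± 9.26 and 39.7% ± 6.68 (SD, n = 5 each). The groups overlapped in both, and these non-productive count shares were not tested.

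IGKJ5 alone held 19.8%, 21.2%, 33.2%, 25.5% and 19.0% of productive counts in isotype replicates 1 to 5, and 63.2%, 25.5%, 46.7%, 30.7% and 29.5% in anti-CTLA-4 replicates 1 to 5. Anti-CTLA-4 replicates 1 and 3 stood above every isotype mouse and the other 3 lay within the isotype range. The difference of 15.4 percentage points did not pass after adjustment (exact permutation p = 0.0476, adjusted p = 0.0794), though without isotype replicate 3 it was 17.8 and passed. IGKJ4 held 14.1% ± 9.19 of productive counts after anti-CTLA-4 and 11.2% ± 2.61 after isotype IgG, and IGKJ1 26.1% ± 4.23 and 27.1% ± 8.38 (SD, n = 5 each), with adjusted p = 0.675 and p = 0.802 in the exact permutation test. Without anti-CTLA-4 replicate 2, which had 27.4% on IGKJ4, the IGKJ4 difference was -0.340 in place of 2.97 percentage points. The IGKJ2 and summed differences passed with each mouse left out in turn.

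A few clonotypes carried these shares. Between 4.92% and 35.6% of the productive kappa counts of a mouse lay on its most counted clonotype, and the 10 most counted held 26.0% to 78.9%. In isotype mice the leading clonotype used IGKJ1 in replicates 1 and 2 and IGKJ2 in replicates 3, 4 and 5, and in anti-CTLA-4 mice it used IGKJ5 in replicates 1, 3 and 5, IGKJ4 in replicate 2 and IGKJ1 in replicate 4. Among the 50 clonotypes that form the 10 most counted of each isotype mouse, 21 used IGKJ2, 13 IGKJ1, 11 IGKJ5 and 5 IGKJ4. Among the 50 of the anti-CTLA-4 mice, 19 used IGKJ5, 14 IGKJ1, 11 IGKJ2 and 6 IGKJ4. These counts describe the clonotypes and were not tested.

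With the leading clonotype of each mouse left out, an alternative chosen after the data were seen, IGKJ2 held 34.7% ± 4.69 of the remaining counts after isotype IgG and 24.8% ± 5.83 after anti-CTLA-4 (SD, n = 5 each; difference -9.91 percentage points, exact permutation p = 0.0159, adjusted p = 0.0794). The sum of IGKJ4 and IGKJ5 differed by 4.10 (exact permutation p = 0.183, adjusted p = 0.304). Without the 10 most counted clonotypes the IGKJ2 difference was -0.927 (exact permutation p = 0.603, adjusted p = 0.754) and that of the sum was -0.516 (exact permutation p = 0.754, adjusted p = 0.754). Both calls thus ended when the leading clonotype was removed. They held without clonotypes far more counted in another mouse, at -18.7 and 19.9 percentage points (adjusted p = 0.0198 each, exact permutation test).

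The junctions of the leading clonotypes are shown because they carry the count shares; capitals mark the bases at the 3′ end that match the germline J gene. The names give the mouse and the V and J genes.
isotype replicate 1, IGKV4-61 with IGKJ1: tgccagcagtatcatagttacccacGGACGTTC
isotype replicate 2, IGKV10-96 with IGKJ1: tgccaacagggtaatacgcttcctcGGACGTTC
isotype replicate 3, IGKV3-7 with IGKJ2: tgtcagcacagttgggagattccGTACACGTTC
isotype replicate 4, IGKV12-44 with IGKJ2: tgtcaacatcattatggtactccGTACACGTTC
isotype replicate 5, IGKV6-23 with IGKJ2: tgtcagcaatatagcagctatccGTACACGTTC
anti-CTLA-4 replicate 1, IGKV4-55 with IGKJ5: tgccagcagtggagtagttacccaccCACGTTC
anti-CTLA-4 replicate 2, IGKV14-111 with IGKJ4: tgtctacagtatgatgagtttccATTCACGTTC
anti-CTLA-4 replicate 3, IGKV6-23 with IGKJ5: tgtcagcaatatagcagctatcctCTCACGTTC
anti-CTLA-4 replicate 4, IGKV10-96 with IGKJ1: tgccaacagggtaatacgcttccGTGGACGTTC
anti-CTLA-4 replicate 5, IGKV4-55 with IGKJ5: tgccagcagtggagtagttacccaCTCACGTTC
All 10 encode a CDR3 of 9 amino acids. Their deposited counts were 32619, 44031, 25795, 68739 and 15817 in isotype replicates 1 to 5, and 129768, 30110, 120842, 16018 and 37928 in anti-CTLA-4 replicates 1 to 5. The 129768 counts of anti-CTLA-4 replicate 1 were 35.6% of its productive kappa counts and 56.4% of its IGKJ5 counts. In anti-CTLA-4 replicate 3 the leader held 27.6% of kappa counts and 59.1% of IGKJ5 counts, and in isotype replicate 4 it held 21.95% of kappa counts and 49.6% of IGKJ2 counts. Each of the 10 was also found in the other 9 mice, and the leader of anti-CTLA-4 replicate 4 had more counts in another mouse, 39050. The source of this sharing was not tested.

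Partner V genes differed with the J gene. The 118 V genes seen were set in the order of the GRCm38.p6 gene table. Towards the J genes, the number in the IGKV name fell in 113 neighbouring pairs, and it fell or stayed equal in 99.1% of them. The number thus gives the order of distance from the J genes. In productive clonotypes the mean V position number was 65.9 ± 1.10 for IGKJ1, 62.3 ± 1.74 for IGKJ4, 62.1 ± 2.41 for IGKJ2 and 60.6 ± 2.10 for IGKJ5 (SD, n = 10 each). IGKJ1 lay above IGKJ5 by 5.26 ± 2.25 in 10 of 10 mice and above IGKJ4 by 3.55 ± 2.29 in 10 of 10 (SD, n = 10; adjusted p = 0.00586 for both, exact permutation test over sign changes, 6 pairs). Above IGKJ2 it lay by 3.79 ± 2.55 in 9 of 10 mice (SD, n = 10; adjusted p = 0.00781, exact permutation test). The 3 downstream J genes did not differ past the test, with -0.244 for IGKJ2 minus IGKJ4, 1.47 for IGKJ2 minus IGKJ5 and 1.71 for IGKJ4 minus IGKJ5 (adjusted p = 0.709, p = 0.237 and p = 0.167, exact permutation test). Both latter differences passed without isotype replicate 5, at 2.24 and 2.32, and turned to -0.705 and -0.704 without near copies of abundant clonotypes (adjusted p = 0.202 and p = 0.391, exact permutation test).

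In non-productive clonotypes the mean position numbers were higher for each J gene, and IGKJ1 was again the highest. They were 72.8 ± 3.20 for IGKJ1, 67.6 ± 2.16 for IGKJ2, 67.1 ± 1.58 for IGKJ4 and 65.7 ± 1.58 for IGKJ5 (SD, n = 10 each). There IGKJ5 lay below IGKJ2 by 1.94 (adjusted p = 0.0164, exact permutation test) and below IGKJ4 by 1.48 (adjusted p = 0.0146, exact permutation test). The treatments did not part in productive clonotypes, where the largest difference was 1.93 for IGKJ2 (exact permutation p = 0.246, adjusted p = 0.540 over 4 J genes).

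Read the other way, the J share depended on the stretch of the V locus. IGKJ1 took 23.3% ± 0.910 of productive clonotypes whose V gene was numbered 1 to 45, 25.8% ± 1.02 of those at 46 to 90 and 28.9% ± 1.93 of those at 91 and above (SD, n = 10 each). IGKJ5 took 27.3% ± 3.02, 28.5% ± 1.86 and 22.2% ± 1.54 of the same classes, so it was lowest with the distant V genes. IGKJ2 stood at 31.3% ± 2.53, 26.6% ± 1.10 and 31.1% ± 1.85, and IGKJ4 at 18.1% ± 1.60, 19.05% ± 1.35 and 17.7% ± 1.28 (SD, n = 10 each). In non-productive clonotypes IGKJ5 reached 35.4% ± 1.75 with the middle V genes, against 17.4% ± 0.926 for IGKJ4, and IGKJ1 reached 30.4% ± 2.24 with the distant ones (SD, n = 10 each). These shares by class were not tested apart from the mean positions.

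**Figure D2:**
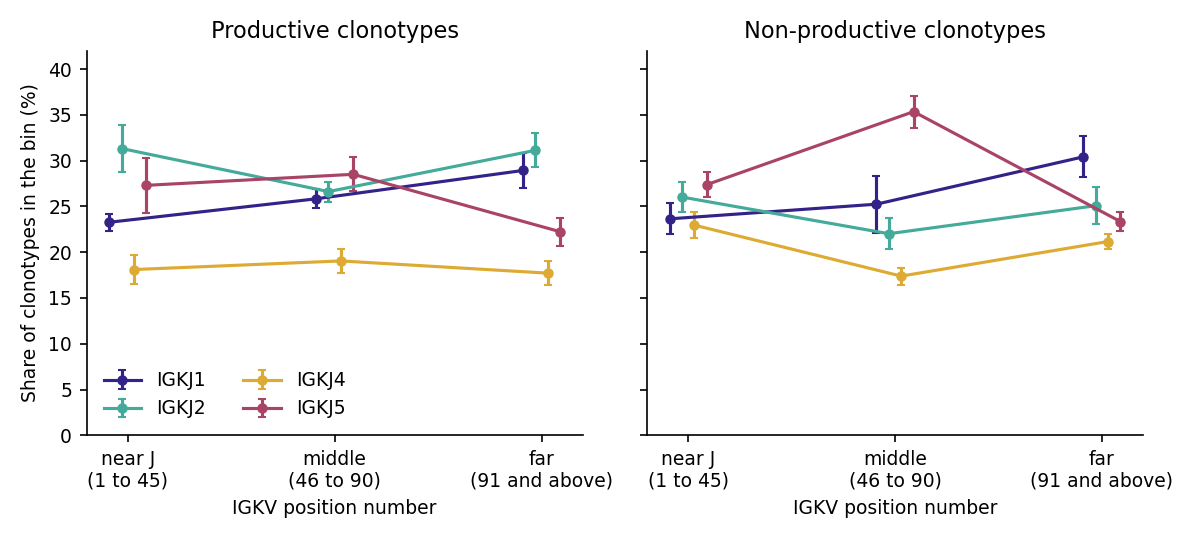
Share of clonotypes (percent) on each IGKJ gene for V genes numbered 1 to 45, 46 to 90, and 91 and above, in productive and non-productive clonotypes. Points are means over 10 mice and bars SDs; the IGKJ1 line climbs from near to distant V genes in both panels, and in non-productive clonotypes IGKJ5 is highest with the middle V genes.

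Single V genes differed in their J profile within the same stretch of the locus. Among the 31 IGKV genes with at least 30 productive clonotypes in every mouse, IGKV10-96 had the highest share on IGKJ1, 44.96% ± 11.7, and IGKV1-135 the next, 40.8% ± 4.44 (SD, n = 10). The lowest IGKJ1 shares belonged to IGKV4-91, at 4.65% ± 2.12, and IGKV17-121, at 6.76% ± 1.40 (SD, n = 10), though all 4 of these V genes are numbered 91 or above. IGKV4-91 in turn had the highest share on IGKJ4, 34.7% ± 7.08, before IGKV17-127 at 29.4% ± 8.12, while IGKV1-135 (12.5% ± 2.93) and IGKV10-96 (13.0% ± 3.48) had the lowest (SD, n = 10 each). IGKV17-121 and IGKV17-127 are often named jointly in the files, so the split between them is uncertain.

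On IGKJ2 the extremes were IGKV14-111 at 42.8% ± 7.39 and IGKV6-13 at 41.7% ± 9.02 above, and IGKV4-55 at 22.8% ± 4.88 and IGKV6-32 at 22.8% ± 10.4 below (SD, n = 10 each). On IGKJ5 they were IGKV8-19 at 39.1% ± 7.77 and IGKV4-55 at 34.4% ± 11.1 above, and IGKV10-96 at 13.7% ± 2.50 and IGKV19-93 at 15.99% ± 2.72 below (SD, n = 10 each). These V genes were named as the ends of a ranking, so their order is a description. Near copies of abundant clonotypes were kept in the shares of single V genes. Over the 10 mice, the IGKJ5 share of IGKV4-55 ran from 23.7% to 58.8%, and the IGKJ1 share of IGKV10-96 from 33.3% to 65.5%. IGKV4-55 on IGKJ5 is the combination that led the counts of anti-CTLA-4 replicates 1 and 5.

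**Figure D3:**
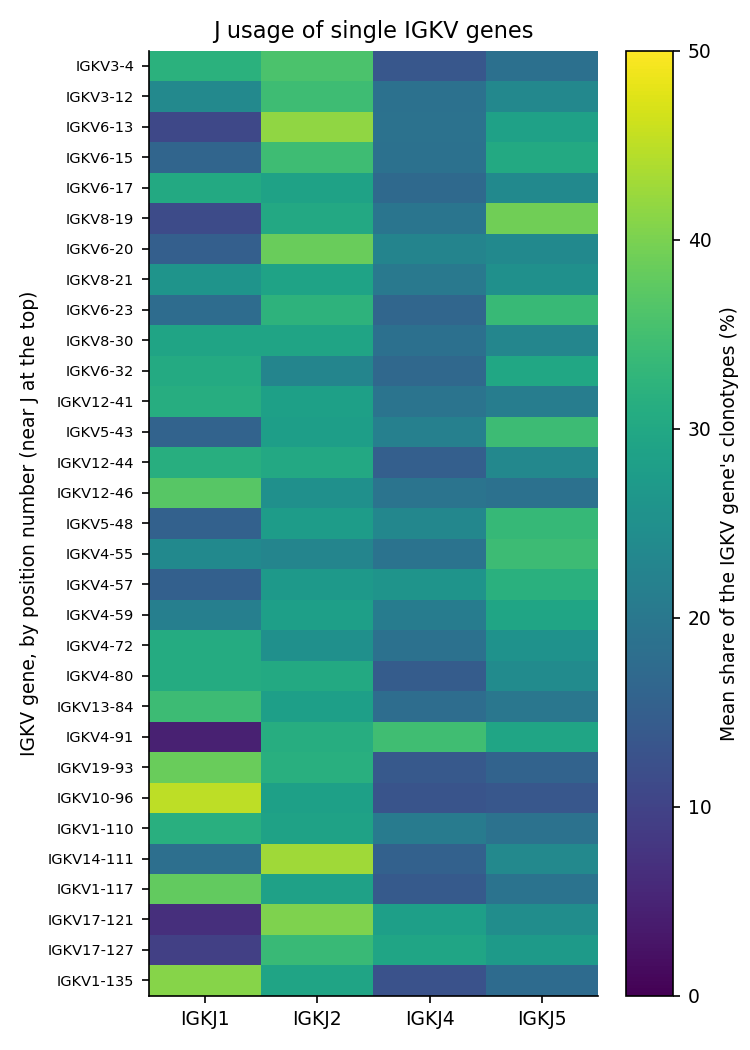
Mean share (percent, colour) of each V gene's productive clonotypes on the 4 IGKJ genes over 10 mice, for the 31 V genes with at least 30 clonotypes in every mouse, ordered by position number. IGKV10-96 and IGKV1-135 are brightest on IGKJ1, and IGKV4-91, IGKV17-121 and IGKV17-127 are dark there although they lie in the same distant part of the locus.

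The V genes that filled most of each J gene overlapped. IGKV6-23 was the most used partner of IGKJ2 (4.39% ± 2.55 of its clonotypes), IGKJ4 (3.59% ± 1.13) and IGKJ5 (5.20% ± 3.10), with IGKV6-15 next in each (3.98% ± 0.516, 3.48% ± 0.497 and 4.03% ± 0.905; SD, n = 10). IGKV14-111 came after them for IGKJ2 (2.86% ± 0.923), IGKV17-121 for IGKJ4 (3.04% ± 0.637) and IGKV8-19 for IGKJ5 (3.16% ± 1.35). IGKJ1 had other leading partners, IGKV10-96 (5.23% ± 2.23), IGKV19-93 (3.29% ± 0.902) and IGKV1-135 (2.96% ± 0.457; SD, n = 10). Over the 10 mice, the V gene whose share of clonotypes ran closest to a J gene's share was IGKV1-110 for IGKJ1, IGKV13-84 for IGKJ2, IGKV4-59 for IGKJ4 and IGKV10-96 for IGKJ5. Pearson's correlation of these V genes with the J share was 0.539, 0.823, 0.638 and 0.564 in that order. Each V gene was picked as the one with the highest correlation of 31, so no test is given.

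The junction ends of the J genes matched the germline to different degrees. Counting germline J bases from the 3′ end of the junction, the full J start of 10 bases was matched in 46.7% ± 2.77 of productive IGKJ4 clonotypes, 37.3% ± 2.26 of IGKJ1 and 36.5% ± 2.58 of IGKJ5 (SD, n = 10 each). For IGKJ2, whose start has 11 bases, it was 22.2% ± 2.12, and a further 28.1% ± 2.29 lacked 1 base, which leaves the tac codon whole (SD, n = 10 each). The germline codon before the shared stretch was kept by 69.5% ± 1.01 of productive IGKJ2 clonotypes, 64.1% ± 3.02 of IGKJ5, 58.8% ± 2.55 of IGKJ4 and 51.6% ± 2.56 of IGKJ1 (SD, n = 10 each). The ranges of IGKJ2 (68.3% to 72.0%) and IGKJ1 (47.6% to 56.0%) did not overlap over the 10 mice.

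Productive and non-productive clonotypes matched the germline J ends in different patterns. IGKJ1 with 8 matched bases formed 21.9% ± 1.83 of productive and 26.5% ± 2.25 of non-productive clonotypes, and with 7 bases 17.6% ± 1.05 and 8.24% ± 1.07 (SD, n = 10 each). IGKJ2 with 10 matched bases formed 28.1% ± 2.29 and 22.5% ± 2.05. IGKJ5 with 9 bases, as in the leading clonotype of anti-CTLA-4 replicates 3 and 5, formed 24.1% ± 2.75 and 29.4% ± 1.70, and IGKJ4 with its whole start 46.7% ± 2.77 and 50.5% ± 2.34 (SD, n = 10 each). A base that matches the J gene can also come from the V end or be added, which raises the number. The match was counted up to the first mismatch, so a mutation or error in the junction lowers it. Productive clonotypes with no J mismatch made up 88.0% ± 2.12 of IGKJ2 to 91.7% ± 1.53 of IGKJ1 (SD, n = 10 each). These are thus matched bases and not a direct measure of what the J gene gave. Between V and J, 66.9% ± 2.39 of productive IGKJ2 clonotypes and 72.0% ± 2.22 of IGKJ1, 71.9% ± 2.42 of IGKJ4 and 72.3% ± 3.89 of IGKJ5 clonotypes had no base left unassigned to either gene (SD, n = 10 each). These values of the junction ends were described and not tested.

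**Figure D4:**
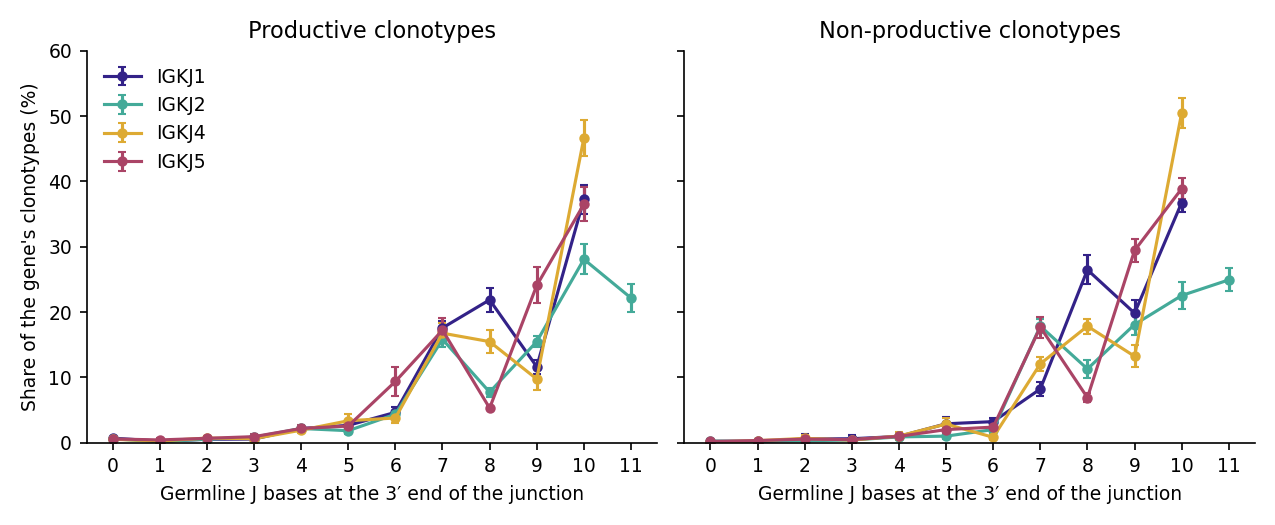
Share of each IGKJ gene's clonotypes (percent) by the number of germline J bases matched at the 3′ end of the junction, productive and non-productive. Points are means over 10 mice and bars SDs. IGKJ4 most often matches its whole start of 10 bases, and IGKJ2, with 11, is spread mainly over 7 to 11 bases.

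CDR3 length followed the J gene. In productive clonotypes the mean was 9.10 ± 0.0282 amino acids for IGKJ2, 8.92 ± 0.0347 for IGKJ4, 8.92 ± 0.0275 for IGKJ5 and 8.86 ± 0.0358 for IGKJ1 (SD, n = 10 each). IGKJ2 exceeded IGKJ1 by 0.246 ± 0.0423, IGKJ4 by 0.183 ± 0.0602 and IGKJ5 by 0.183 ± 0.0457 amino acids, each in 10 of 10 mice (SD, n = 10; adjusted p = 0.00293 each, exact permutation test over sign changes, 6 pairs). IGKJ1 minus IGKJ4 was -0.0629 (lower in 9 of 10 mice, adjusted p = 0.00469) and IGKJ1 minus IGKJ5 -0.0632 (10 of 10, adjusted p = 0.00293, exact permutation test), while IGKJ4 minus IGKJ5 was -0.000272 (adjusted p = 0.988). No J gene's length differed between treatments (smallest exact permutation p = 0.365, adjusted p = 0.659).

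The difference lay in the tails of the distribution. A CDR3 of 9 amino acids was the usual length of all 4 J genes, in 56.8% ± 3.31 of IGKJ2 to 61.0% ± 5.05 of IGKJ5 clonotypes (SD, n = 10 each). A CDR3 of 11 amino acids was found in 6.99% ± 0.788 of IGKJ2 clonotypes but 2.62% ± 0.569 of IGKJ1, 2.90% ± 0.480 of IGKJ4 and 3.24% ± 0.681 of IGKJ5 (SD, n = 10 each), and the lowest IGKJ2 mouse, at 5.75%, lay above the highest value of any other J gene, 4.11%. IGKJ1 instead had the most CDR3s of 8 amino acids, 22.5% ± 1.60 against 15.7% ± 1.11 for IGKJ2 (SD, n = 10 each). Weighted by deposited count the order turned, with IGKJ2 shorter than IGKJ4 by -0.0441 and than IGKJ5 by -0.0458 amino acids, and these values did not pass (adjusted p = 0.0508 and p = 0.0527, exact permutation test). IGKJ1 minus IGKJ2 was then -0.0405 in place of -0.246 and no longer passed (adjusted p = 0.511, exact permutation test).

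**Figure D5:**
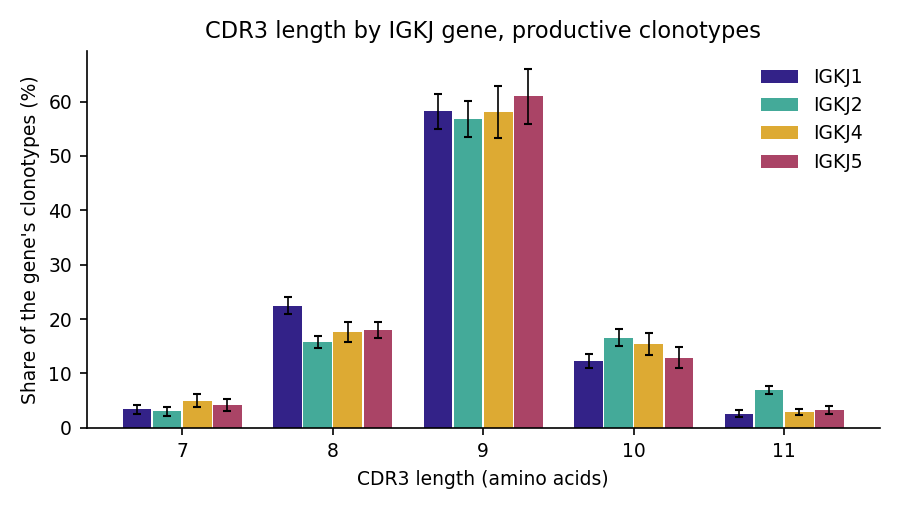
Share of each IGKJ gene's productive clonotypes (percent) with a CDR3 of 7 to 11 amino acids. Bars are means over 10 mice with SDs; the IGKJ2 bar is the tallest at 11 amino acids and the IGKJ1 bar the tallest at 8.

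A typical clonotype carried more counts on IGKJ1 and IGKJ5 than on IGKJ2 and IGKJ4. The mean log2 deposited count per productive clonotype was 2.57 ± 0.21 for IGKJ1, 2.49 ± 0.23 for IGKJ5, 2.28 ± 0.21 for IGKJ2 and 2.26 ± 0.20 for IGKJ4 (SD, n = 10 each). IGKJ1 exceeded IGKJ2 by 0.29 and IGKJ4 by 0.31, and IGKJ5 exceeded IGKJ2 by 0.21 and IGKJ4 by 0.23 on the log2 scale, each in 10 of 10 mice (adjusted p = 0.00293 each, exact permutation test over sign changes). IGKJ1 exceeded IGKJ5 by 0.08 in 9 of 10 mice (adjusted p = 0.0211), and IGKJ2 minus IGKJ4 was 0.01 (adjusted p = 0.449, exact permutation test). The share of clonotypes with at least 100 counts gave another order: for IGKJ4 it was 8.68% ± 1.31, against 9.64% ± 1.44 for IGKJ1, 9.04% ± 1.71 for IGKJ5 and 7.10% ± 0.648 for IGKJ2 (SD, n = 10 each). IGKJ2 lay below IGKJ4 there by -1.58 percentage points (adjusted p = 0.0117, exact permutation test). On this measure IGKJ4 minus IGKJ5 (-0.363, adjusted p = 0.367) and IGKJ1 minus IGKJ5 (0.598, adjusted p = 0.0656) no longer passed the exact permutation test. Mismatches to the germline V gene, which can be mutations, errors or allelic differences, averaged 0.542 ± 0.0898 per 100 nucleotides with IGKJ5, 0.432 ± 0.0588 with IGKJ1, 0.415 ± 0.0402 with IGKJ2 and 0.356 ± 0.0964 with IGKJ4 (SD, n = 10 each), and were not tested.

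Some joinings recurred in every mouse. Of the distinct productive joinings over all mice, 298 of 3525 on IGKJ1 (8.45%), 302 of 4131 on IGKJ2 (7.31%), 180 of 2499 on IGKJ4 (7.20%) and 291 of 3728 on IGKJ5 (7.81%) were found in all 10 mice, while 62.7% to 66.3% were found in 1 mouse. The shared joining with the highest median count is shown for the J genes that did not yet appear with it, as an example of a junction built almost wholly from germline bases, with the J match in capitals.
IGKV6-15 with IGKJ2: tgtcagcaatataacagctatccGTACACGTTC
IGKV6-15 with IGKJ4: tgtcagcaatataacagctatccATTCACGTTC
The first had a median count of 2793 over the mice (1062 to 4376) and the other one of 1030 (383 to 4226). For IGKJ1 and IGKJ5 the joinings were those that led anti-CTLA-4 replicates 4 and 3, with IGKV10-96 (median 3232) and IGKV6-23 (median 4328). No base was left unassigned between V and J in 84.4% to 87.9% of the joinings found in all mice, depending on the J gene. Without clonotypes far more counted in another mouse the numbers found in all mice were 246, 241, 140 and 220 for IGKJ1, IGKJ2, IGKJ4 and IGKJ5.

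No single V and J combination separated the treatments in clonotype numbers. Of 130 IGKV-IGKJ pairs tested, 0 passed an adjusted p of 0.05 with edgeR's quasi-likelihood test (0% called), 4 fell under 0.05 before adjustment, and with DESeq2 the numbers were 0 and 3. By J gene, the median log2 fold change, anti-CTLA-4 over isotype, was -0.02 over 31 IGKJ1 pairs, 0.00 over 42 IGKJ2 pairs, 0.19 over 25 IGKJ4 pairs and -0.01 over 32 IGKJ5 pairs, beside 0.02 over all 130. IGKV17-127 with IGKJ5 had the smallest p, with 0.284% ± 0.0328 of productive clonotypes in isotype mice and 0.513% ± 0.158 in anti-CTLA-4 mice (SD, n = 5 each; log2 fold change 0.85, SE 0.24, adjusted p = 0.475, edgeR). It was also the single pair to pass by edgeR in the 9 mice other than anti-CTLA-4 replicate 4, at a log2 fold change of 1.04 with adjusted p = 0.0209.

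The other pairs named by the ranking did not pass either. IGKV6-15 with IGKJ5 stood at 1.24% ± 0.165 and 0.877% ± 0.197 (log2 fold change 0.53), and IGKV4-57 with IGKJ4 at 0.498% ± 0.137 and 0.363% ± 0.0799 (0.52) after anti-CTLA-4 and isotype IgG (SD, n = 5 each; adjusted p = 0.803 for both, edgeR). Towards lower values, the log2 fold change was -0.76 for IGKV6-32 with IGKJ2 (adjusted p = 0.784), -1.18 for the same V gene with IGKJ5 and -0.46 for IGKV13-84 with IGKJ4 (adjusted p = 0.803 for both, edgeR). The isotype share of IGKV6-32 with IGKJ5 ran from 0.306% to 2.71%, and without isotype replicate 3 its log2 fold change was -0.34, while that of IGKV6-32 with IGKJ2 was -0.46 without isotype replicate 2. Within mice, the productive minus non-productive shares and the differences between J genes in V position, length and count were compared between the treatments. None of the 23 comparisons passed (smallest exact permutation p = 0.175, adjusted p = 0.524).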

How the data were processed

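Per the labels' protocols, RNA was extracted per mouse and receptor libraries were made with a kit that uses molecular identifiers. The authors deposited 1 table per mouse with a row per assembled sequence and a whole-number count, per the file headers. The sources used here do not give the aligner, the germline set, or whether a count is a read or a molecule. IGKV rows were assigned to the gene of the first J call and the first-listed V gene, alleles removed. A clonotype was a distinct V gene, J gene and junction within a mouse, productive and non-productive apart. The 1174 kappa sequences without a junction, all non-productive, formed no clonotype. The position was the number after the V family, also in 790 sequences of genes with 3-part names, where the last part had been planned. Tests were two-sided exact permutation tests with Benjamini-Hochberg adjustment within each family (scipy 1.17.1 and numpy 2.4.6, Python 3.11.15), and edgeR 4.0.16 quasi-likelihood tests (R 4.3.3, TMM, filterByExpr), both tested on simulated data. DESeq2 1.42.0 and the settings of the closing section were alternatives. Members, lists and the rule for named genes (pairs past the threshold or the 3 with the smallest p per direction; per J gene the 3 most used V genes, the extremes of V genes' own J shares and the closest V gene over mice; leading clonotypes) were chosen with earlier results of these data known. V genes for own J shares needed 30 clonotypes in every mouse, a minimum lowered from 100, which 0 genes met, after the numbers were seen. Intervals cover counting error only.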

Additional observations from a re-analysis of the deposited data

How the results depend on the processing

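Of the 46 tested values between groups, between J genes or between productive and non-productive clonotypes, 19 passed the threshold. Each of these kept its call with every mouse left out in turn. Values are anti-CTLA-4 minus isotype for group comparisons, and the cause of each change was not tested.

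With each assembled sequence counted once, the group difference turned to 0.332 percentage points for the productive IGKJ1 share, -0.426 for the non-productive IGKJ5 share and -1.37 for that of IGKJ4 plus IGKJ5; productive minus non-productive shares were -3.80 for IGKJ1 (now past the threshold), 0.422 for IGKJ5 (reversed) and -3.23 for IGKJ4 plus IGKJ5 (no longer past it). With a deposited count of at least 2, non-productive shares turned to 0.381 (IGKJ2) and -0.569 (IGKJ4 plus IGKJ5), group differences in V position to 0.371 (IGKJ1) and -0.372 (IGKJ2), and in CDR3 length to 0.0182 (IGKJ1) and -0.00594 (IGKJ2). With single-gene V and J calls alone, productive minus non-productive IGKJ1 was -0.993 and passed, and 3 differences near 0 turned: V position IGKJ2 minus IGKJ4 0.685, CDR3 length IGKJ4 minus IGKJ5 0.00674 and log2 count IGKJ2 minus IGKJ4 -0.00327. With out-of-frame sequences alone, productive minus non-productive IGKJ1 was -0.987 and passed. CDR3 length IGKJ4 minus IGKJ5 was 0.00374 without clonotypes far more counted in another mouse.

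Weighted by deposited count, group differences turned to 1.13 (IGKJ1) and 6.55 (IGKJ5) in V position and -0.00756 (IGKJ4) in CDR3 length; CDR3 length was -0.0405 for IGKJ1 minus IGKJ2, no longer past the threshold, and turned to -0.0441 for IGKJ2 minus IGKJ4 and -0.0458 for IGKJ2 minus IGKJ5. In non-productive clonotypes V position was 0.457 for IGKJ2 minus IGKJ4, 1.94 for IGKJ2 minus IGKJ5 and 1.48 for IGKJ4 minus IGKJ5, the last pair passing. The share of clonotypes with at least 100 counts gave 0.598 for IGKJ1 minus IGKJ5 and -0.363 for IGKJ4 minus IGKJ5, not past the threshold, and -1.58 for IGKJ2 minus IGKJ4, reversed and past it.

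Of the settings chosen after the data were seen, leaving out near copies of abundant clonotypes gave group differences of 0.0720 (IGKJ1), -0.0599 (IGKJ4) and -0.0420 (IGKJ4 plus IGKJ5) in productive shares and -0.124 (IGKJ4 plus IGKJ5) in non-productive ones, productive minus non-productive IGKJ1 of 0.204, V positions of -0.705 (IGKJ2 minus IGKJ5) and -0.704 (IGKJ4 minus IGKJ5), a CDR3 length IGKJ4 minus IGKJ5 of 0.00322, all turned, and a log2 count IGKJ2 minus IGKJ4 of 0.0895, now past the threshold. Leaving out the most counted clonotype of each mouse gave count shares of 5.81 (IGKJ1, turned), -9.91 (IGKJ2) and 4.10 (IGKJ4 plus IGKJ5), the last pair no longer past the threshold; leaving out the 10 most counted gave 1.44 (IGKJ1), -0.927 (IGKJ2), -2.89 (IGKJ5) and -0.516 (IGKJ4 plus IGKJ5), all turned but IGKJ2, whose call ended.

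With single mice left out, group differences ranged from -0.492 to 0.131 (IGKJ1), -0.0645 to 0.508 (IGKJ4) and -0.149 to 0.751 (IGKJ5) in productive shares, from -0.168 to 0.666 (IGKJ1), -1.03 to 0.151 (IGKJ2), -0.174 to 0.245 (IGKJ4), -0.117 to 0.448 (IGKJ5) and -0.250 to 0.493 (IGKJ4 plus IGKJ5) in non-productive ones, from -2.74 to 1.49 (IGKJ1), -0.340 to 5.84 (IGKJ4) and 9.37 to 18.8 (IGKJ5) in count shares, and from -0.443 to 0.445 in V position (IGKJ1) and -0.00227 to 0.0245 in CDR3 length (IGKJ4). Between J genes, V position ranged from -0.588 to 0.0509 (IGKJ2 minus IGKJ4), 0.848 to 2.24 (IGKJ2 minus IGKJ5) and 1.28 to 2.32 (IGKJ4 minus IGKJ5), CDR3 length from -0.00615 to 0.00591 (IGKJ4 minus IGKJ5), and productive minus non-productive IGKJ1 from -1.09 to -0.636. The number of V and J pairs called ranged from 0 to 1.

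The replicate numbers did not pair the mice: same-numbered mice correlated at -0.0175 to 0.115 in their deviations over V and J pairs, and 1 of 5 correlated best with its own number. With the replicate block the count shares of IGKJ2 (-17.4) and of IGKJ4 plus IGKJ5 (18.4) no longer passed (adjusted p = 0.104 each, exact permutation test), since 5 pairs cannot give a p under 0.0625, and 0 pairs were called by edgeR. In a simulation on 130 pairs, edgeR called 15 of 20 pairs changed 2-fold (75%) and 20 of 20 changed 3-fold (100%). Of the 90 unchanged pairs it called 1. All simulated pairs had the same set dispersion, which was not estimated from these mice. In the mice, IGKV6-32 with IGKJ5 had a log2 fold change of -1.18 with an SE of 0.59 and did not pass (adjusted p = 0.803, edgeR). Changes of 2-fold and more in single variable pairs may thus also lie below detection.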
